A study of Homo sapiens with 13 samples.

Results

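The mitochondrial ribosomal protein (MRP) genes were taken as every symbol that starts with MRPL or MRPS followed by a digit, without pseudogenes. This gave 76 genes of the 26676 symbols in both tables. The Silvestrol table lists 74 of them, and 72 passed the filter on low values, which kept 10588 genes in all. The INK128 table lists all 76, of which 71 were used beside 7102 genes in all. MRPL12 and MRPS17 were listed for INK128 alone. MRPL36 had 0 to 9 RF reads in each footprint library of the Silvestrol experiment, and MRPS18B had 0 reads in all 9 libraries, so neither passed the filter there. Both gave clear footprints in the INK128 experiment (85.0 and 62.2 FPKM with DMSO).

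MDA-MB-231 is an established line of triple-negative breast cancer cells. Silvestrol, an inhibitor of the RNA helicase eIF4A, was given at 25 nM for 1 or 2 h beside DMSO controls, and ribosome footprints (RFs, the mRNA fragments that ribosomes protect from RNase) were sequenced. The 2 h footprints were made at passage 3 and again at passage 4 (n = 2 per group). The 1 h footprints, the untreated footprints and the mRNA of DMSO- and Silvestrol-treated cells at 2 h are 1 passage 3 library each. A separate experiment at passage 3 gave footprints and total RNA after 2 h of DMSO or 200 nM INK128, an inhibitor of mTOR, with 1 library each. The shallowest library held 2652423 counted reads (passage 4, Silvestrol at 2 h) and the deepest 50315607 (mRNA with DMSO), and the MRP genes held 0.793% to 1.09% of the RF reads. The labels name 1 hour in the treatment field of the passage 3 Silvestrol library titled as 2 h, and untreated in that of the DMSO mRNA library, whose columns carry no treatment name. In the RFs of DMSO-treated cells VIM, a mesenchymal marker of this line, was at 6454 RPKM (reads per kilobase of counted length, scaled to the library's total), and the hormone receptor genes ESR1 and PGR were at 0 RPKM. ERBB2, the third gene of the triple-negative definition, was at 3.27 RPKM in RFs and at 25.8 RPKM in mRNA.

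Mitochondrial ribosomes make the few proteins that mitochondrial DNA encodes, all of them core subunits of the oxidative phosphorylation complexes. Their rRNAs come from mitochondrial DNA, whereas every one of their proteins is encoded in the nucleus, translated on cytosolic ribosomes and imported. Many MRPs descend from bacterial ribosomal proteins and carry their numbers, and others were added during the evolution of mitochondria. Translation on most cytosolic mRNAs starts with eIF4F, in which eIF4A unwinds the 5′ UTR ahead of the scanning small subunit. mTOR acts on initiation through the cap-binding part of eIF4F and on mRNAs that begin with a run of pyrimidines, such as those of the cytosolic ribosomal proteins.

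The annotated 5′ UTRs of the MRP genes were short. Their median length was 29.5 nt over the 72 genes, against 134 nt over the 9143 tested genes with an annotation, 42 nt over 53 cytosolic ribosomal protein genes and 41 nt over 55 nuclear genes for oxidative phosphorylation subunits. In 37 of 72 MRP genes (51.4%) the 5′ UTR was at most 30 nt long, which held for 10.8% of all genes. The first 30 bases of a few annotated transcripts are shown, 5′ to 3′, because a start codon so near the 5′ end is a feature that many of the genes share. Capitals mark the start codon, or the letters AAGATGGC wherever they occur in these bases, at the start codon or not. The first 7 genes have a start codon within these bases. The last 3 have it further in, and in MRPL20 and MRPL42 the letters in capitals lie upstream of the annotated start.
MRPS27: ccttttggtacgctccAAGATGGCtgcctc
MRPS30: ggaatcgcgggcaAAGATGGCggcggccag
MRPS18A: aggtttttgAAGATGGCggccctcaaggct
MRPL39: gctgctATGgaggcgctggccatgggttcc
MRPL44: ctctcgtgcaATGgcgtccgggctggtaag
MRPS35: gtcctcgcagccATGgcggccgccgcgctc
MRPL9: attctgtgcctgtgaacATGgcggcgcccg
MRPL20: atttccgacccgggcAAGATGGCagcggcg
MRPL42: attgaaacAAGATGGCgggttcgtggtgag
MRPL24: atgtgctgaaaatccgaagtgccgcggaaa
These bases lie in the first exon of each gene at, in GRCh37 coordinates, chr5:71616038-71616067 on the minus strand for MRPS27, chr5:44809049-44809078 on the plus strand for MRPS30, chr6:43655499-43655528 on the minus strand for MRPS18A and chr21:26979764-26979793 on the minus strand for MRPL39. MRPL44 is at chr2:224822180-224822209 (plus), MRPS35 at chr12:27863765-27863794 (plus), MRPL9 at chr1:151735943-151735972 (minus), MRPL20 at chr1:1342644-1342673 (minus), MRPL42 at chr12:93861290-93861319 (plus) and MRPL24 at chr1:156710851-156710880 (minus). The annotation gives 1 transcript per gene and was not measured in these cells.

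The letters AAGATGGC around the start codon, the core of a short element known as TISU (translation initiator of short 5′ UTR), stood at the annotated start of 13 of 72 MRP genes (18.1%), against 4.36% of all genes. The shorter ATGGC stood there in 47 of 72 (65.3%), against 29.2% of all genes. The oxidative phosphorylation genes held AAGATGGC at the start in 13 of 55 (23.6%) and the cytosolic ribosomal protein genes in 4 of 53 (7.55%). In RefSeq promoter windows of GRCh38.p14, from 250 bases before to 50 after each annotated start of transcription, AAGATGGC occurred on either strand in 21 of 67 matched MRP genes (31.3%), against 3.52% of all genes with a window. A transcript start at C followed by 4 pyrimidines was found in 6 of those 67 genes (8.96%), in 73.8% of cytosolic ribosomal protein genes and in 5.14% of all genes. A match describes the letters only and is not a measured site.

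As a group the MRP genes were expressed above most genes in DMSO-treated cells. All 72 lay above the median of all genes in RF level, with a median of 147 RPKM (quartiles 97.4 and 236) against 20.5 RPKM over all genes, in the passage 3 library at 2 h. The RF level ran from 29.8 RPKM for MRPS21, a protein of the small subunit with only 21 reads there, to 879 RPKM for MRPL14, which lies at the interface between subunits. The spread between members was narrower for RFs (SD of log2 RPKM 0.94, against 2.29 over all genes) than for mRNA (1.41, against 2.08). The mRNA level had a median of 54.6 RPKM (11.9 over all genes). The translation efficiency (TE, the RF level over the mRNA level) had a median of 2.78 (1.83 over all genes) and ran from 0.989 for MRPL37 to 18.1 for MRPL19.

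The highest mean RF levels over the 4 libraries at 2 h belonged to MRPL14, MRPL52, MRPL17, MRPL33 and MRPL13, all proteins of the large subunit. MRPL14 was at 879 and 756 RPKM with DMSO (passages 3 and 4) and at 682 and 652 RPKM with Silvestrol. MRPL17 was at 492 and 431 RPKM with DMSO and at 545 and 490 RPKM with Silvestrol, so the groups overlapped. MRPL33 was at 316 and 470 RPKM with DMSO and at 407 and 519 RPKM with Silvestrol, higher with the drug within each passage but overlapping across them. MRPL13 went the other way, from 462 and 438 RPKM with DMSO to 327 and 331 RPKM with Silvestrol. None of these 4 passed the RF test, with edgeR adjusted p-values of 0.53, 0.28, 0.31 and 0.16.

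The main comparison asks how RFs on these mRNAs changed when eIF4A was inhibited for 2 h. Most MRP genes held more RFs with Silvestrol than with DMSO. By edgeR (quasi-likelihood test, Benjamini-Hochberg adjustment over 10588 genes) 10 of 72 members rose (13.9%), against 2.10% of all genes, and 1 fell (1.39%), against 7.52% of all genes. Those that rose were MRPS27, MRPS35, MRPL9, MRPL44, MRPL52, MRPL20, MRPL53, MRPL40, MRPL39 and MRPS30, and MRPL24 fell. The median log2 change of the 72 genes was 0.37 (quartiles 0.15 and 0.62), against -0.02 over all genes. The RPKM values themselves had medians over all genes of -0.17 and -0.15 (log2, passages 3 and 4), and the MRP medians were 0.19 and 0.29, or 0.37 and 0.44 above those of all genes. Both Silvestrol libraries lay above both DMSO libraries in RPKM for 34 of 72 members (20.3% of all genes) and below both for 15 (40.0% of all genes).

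With the passage as a block, 47 members rose and 6 fell, against 24.6% and 28.0% of all genes. DESeq2 called 25 higher and 1 lower, against 5.13% and 9.44% of all genes. Without either one of the Silvestrol libraries no member passed in edgeR, and neither did any other of the 10588 genes. Without the passage 3 DMSO library 5 rose and none fell, against 2.35% and 6.56% of all genes, and without the passage 4 DMSO library 4 rose and 1 fell, against 2.30% and 8.66%. In these fits the lone library was taken to vary like the other group. Values are scaled to each library's total, so a change in the total amount of RFs per cell would not show.

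MRPS27, a mitochondrion-specific protein of the small subunit, had the lowest adjusted p of the group. Its RF level was 139 and 132 RPKM with DMSO and 220 and 239 RPKM with Silvestrol, a log2 change of 0.88 ± 0.13 (SE, n = 2 per group, edgeR adjusted p = 0.026). MRPS35, another protein found only in mitochondrial ribosomes, was at 126 and 117 RPKM with DMSO and at 189 and 191 RPKM with Silvestrol, a log2 change of 0.77 ± 0.13 (edgeR adjusted p = 0.034). The groups did not overlap for either gene, and the 1 h Silvestrol library was also above its control, at 187 against 140 RPKM for MRPS27 and at 173 against 118 RPKM for MRPS35. MRPL44, which resembles an RNase III and sits on the large subunit, was at 62.3 and 67.0 RPKM with DMSO and at 93.9 and 102 RPKM with Silvestrol (log2 change 0.72 ± 0.13, edgeR adjusted p = 0.034). MRPL9, the counterpart of bacterial L9, was at 163 and 142 RPKM with DMSO and at 244 and 213 RPKM with Silvestrol (log2 change 0.72 ± 0.15, edgeR adjusted p = 0.045).

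The other 6 genes that rose had changes of similar size. MRPL52, one of the proteins without a bacterial counterpart, was at 443 and 426 RPKM with DMSO and at 654 and 645 RPKM with Silvestrol. MRPL20, the counterpart of bacterial L20, was at 157 and 152 RPKM with DMSO and at 228 and 219 RPKM with Silvestrol. MRPL53 was at 212 and 229 RPKM with DMSO and at 325 and 311 RPKM with Silvestrol. In each of these the 4 values fell into separate pairs by treatment. MRPL40 was at 118 and 121 RPKM with DMSO and at 158 and 179 RPKM with Silvestrol, and MRPL39, whose sequence resembles part of a threonyl-tRNA synthetase, was at 90.4 and 84.0 RPKM and then at 125 and 118 RPKM. MRPS30, which structures place on the large subunit in spite of its symbol, was at 75.1 and 74.9 RPKM with DMSO and at 104 and 106 RPKM with Silvestrol. Across the 10 genes that rose the log2 change ran from 0.61 to 0.88, with SEs of 0.13 to 0.15 and adjusted p-values of 0.026 to 0.045. All 10 adjusted p-values lay close under the threshold of 0.05. With the counted length as an offset and no block, 11 members rose and 1 fell, against 2.65% and 8.53% of all genes. In that fit MRPL9 (log2 change 0.73, edgeR adjusted p = 0.0502) and MRPL39 (0.62, edgeR adjusted p = 0.052) no longer passed, with changes of about the same size.

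**Figure D1:**
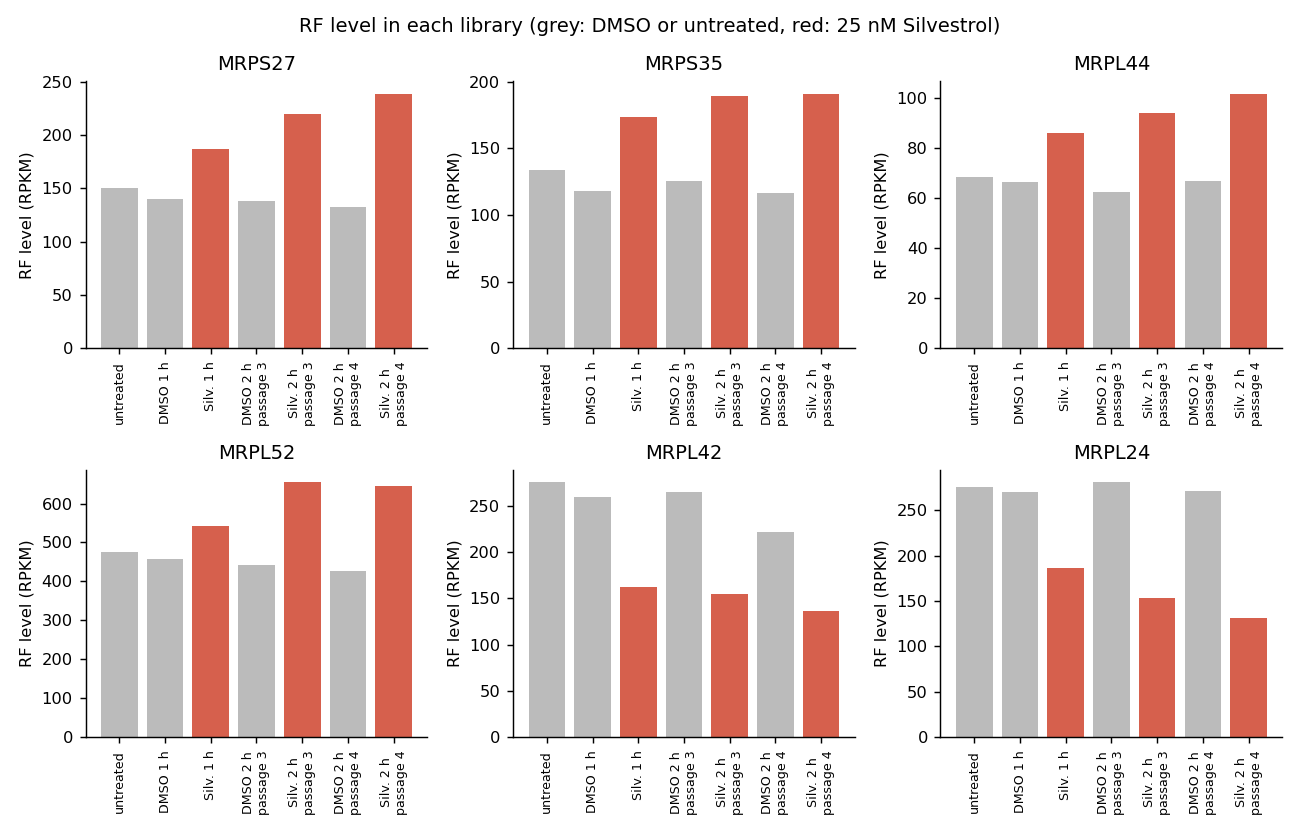
RF level in RPKM of 6 MRP genes, 1 bar per library: untreated cells, then each DMSO library (grey) beside its Silvestrol library (red) at 1 h and at 2 h in passages 3 and 4. MRPS27, MRPS35, MRPL44 and MRPL52 are higher with the drug in all 3 pairs, and MRPL42 and MRPL24 are lower in all 3.

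MRPL34, the counterpart of bacterial L34, had the highest estimate of all members but did not pass. It was at 143 and 104 RPKM with DMSO and at 250 and 176 RPKM with Silvestrol, a log2 change of 0.91 ± 0.30 (edgeR adjusted p = 0.11). The DMSO passages differed from each other, and in the blocked edgeR fit the adjusted p was 4.31e-10. MRPS31 was at 41.0 and 29.7 RPKM with DMSO and at 62.4 and 46.7 RPKM with Silvestrol (log2 change 0.79 ± 0.19, edgeR adjusted p = 0.061). MRPS2, the counterpart of bacterial S2, was at 260 and 172 RPKM with DMSO and at 356 and 303 RPKM with Silvestrol (log2 change 0.73 ± 0.26, edgeR adjusted p = 0.13). For all 3 the Silvestrol values lay above the DMSO values in each passage.

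At the other end, MRPL24, the counterpart of bacterial L24, which binds early in assembly of the large subunit, was the 1 member that fell. It was at 281 and 271 RPKM with DMSO and at 153 and 132 RPKM with Silvestrol, a log2 change of -0.82 ± 0.16 (edgeR adjusted p = 0.043). The 1 h library was also lower than its control, at 187 against 271 RPKM. With DESeq2's size factors in edgeR its log2 change was -0.78 (edgeR adjusted p = 0.054), and DESeq2 itself called it lower (-0.78, DESeq2 adjusted p = 0.011). MRPL3, the counterpart of bacterial L3 near the peptidyl transferase centre, was at 97.3 and 68.7 RPKM with DMSO and at 51.2 and 32.8 RPKM with Silvestrol. Its edgeR log2 change was -0.53 ± 0.18 (adjusted p = 0.12), beside -0.93 and -1.06 in its RPKM values. The length over which the authors counted reads of this gene was 0.33 and 0.32 log2 units longer in the Silvestrol libraries. MRPL55 was at 126 and 86.2 RPKM with DMSO and at 85.6 and 47.9 RPKM with Silvestrol (log2 change -0.51 ± 0.37, edgeR adjusted p = 0.40).

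MRPL30 and MRPL42 complete the lowest 5. MRPL30, the counterpart of bacterial L30, was at 71.6 and 73.8 RPKM with DMSO and at 45.7 and 37.6 RPKM with Silvestrol (log2 change -0.43 ± 0.23, edgeR adjusted p = 0.27). MRPL42, a mitochondrion-specific protein, was at 265 and 222 RPKM with DMSO and at 155 and 137 RPKM with Silvestrol (log2 change -0.43 ± 0.15, edgeR adjusted p = 0.13). The counted length was longer in the Silvestrol libraries, by 0.18 and 0.35 log2 units for MRPL30 and by 0.15 and 0.22 for MRPL42. With that length as an offset and no block their log2 changes were -0.64 and -0.60. With the passage as a block MRPL24, MRPL3, MRPL55, MRPL42, MRPL18 and MRPL13 fell, all of them genes of the large subunit. No gene of the MRPS series was called lower in either fit. With the counted length as an offset and the block together, MRPS33, a protein of the small subunit, was among 9 members that fell, against 28.0% of all genes (log2 change -0.58, edgeR adjusted p = 0.0012).

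**Figure D2:**
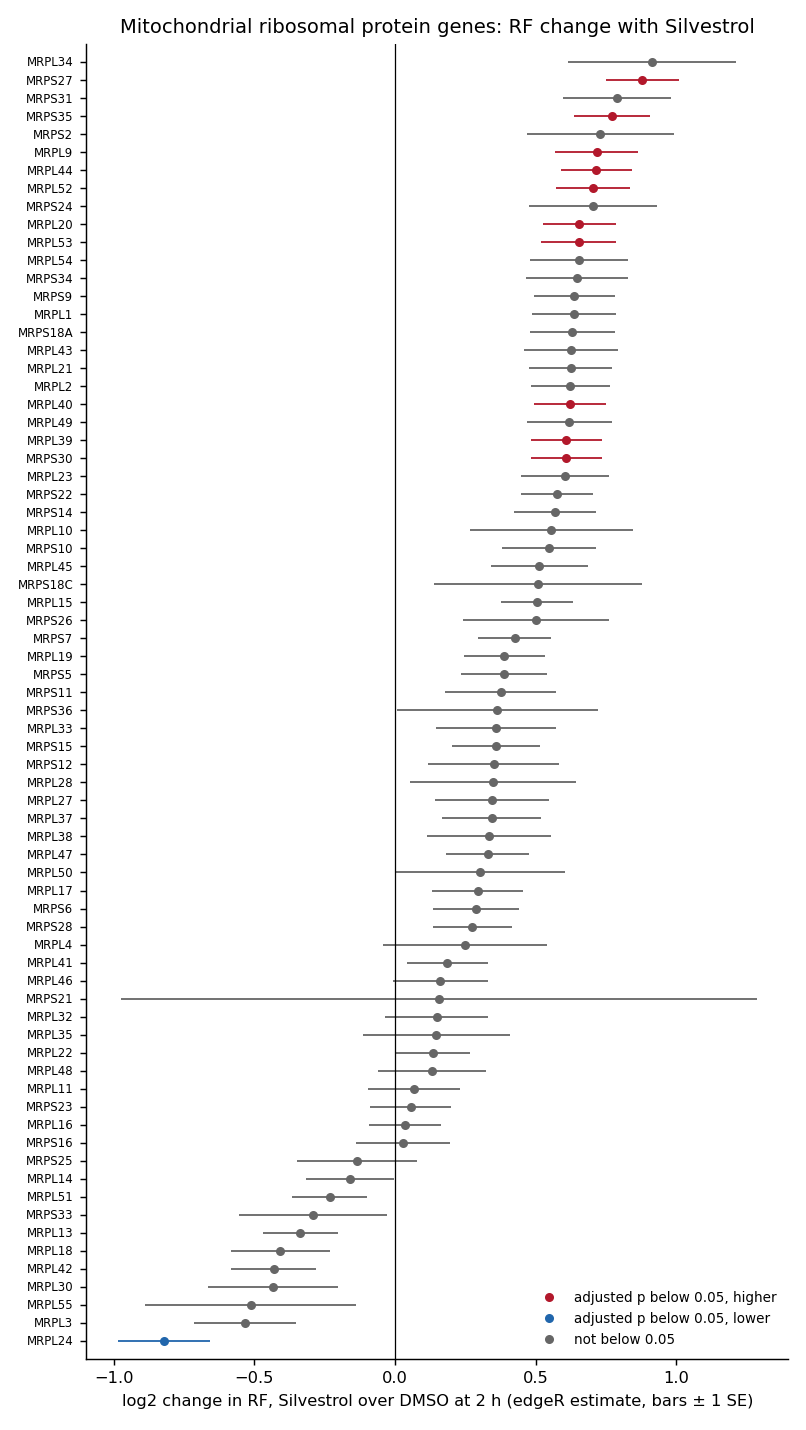
Log2 change in RFs, Silvestrol over DMSO at 2 h, for the 72 tested MRP genes in order of the edgeR estimate (bars ± 1 SE, n = 2 libraries per group). Most points lie right of 0, 10 in red rose, MRPL24 in blue fell, and the wide bar is MRPS21.

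By subunit, 7 of 45 genes of the MRPL series rose and 1 fell, and 3 of 27 genes of the MRPS series rose and none fell, where 2.10% of all genes rose and 7.52% fell. The median log2 changes were 0.34 and 0.50. Of the 40 genes that share a number with a bacterial protein, 2 rose and 1 fell (median 0.36), and of the 32 with higher numbers, 8 rose and none fell (median 0.51). This split is by number alone, and the higher numbers include MRPS24, a counterpart of bacterial S3. With the passage as a block 27 of 45 MRPL and 20 of 27 MRPS genes rose and 6 and 0 fell, and 26 of 40 with bacterial and 21 of 32 with higher numbers rose and 4 and 2 fell, where 24.6% of all genes rose and 28.0% fell. The difference between these lists was not tested. The annotated 5′ UTRs were shorter in the lists with the higher median: 22 nt for MRPS against 38 nt for MRPL, and 21 nt for the higher numbers against 39 nt for the bacterial ones.

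Most members had the same sign in both passages. The RPKM change was positive in both passages for 50 genes, negative in both for 18 and of opposite sign for 4. Over all genes it was positive for 4170 of 10588 in passage 3 and for 4325 of 10532 in passage 4. The changes of the passages had a Pearson correlation of 0.85 and a Spearman correlation of 0.75 across the 72 genes (0.73 and 0.75 across all genes). The passages share no library, and genes are not independent replicates. MRPS18C was one of the 4, at 83.8 and 107 RPKM with DMSO and at 148 and 94.8 RPKM with Silvestrol. MRPS21 gave too few reads for a direction. It had 21 and 36 reads with DMSO and 18 and 15 with Silvestrol, an edgeR log2 change of 0.16 ± 1.13, RPKM changes of -1.04 and -0.80, and an edgeR change of -0.80 once the counted length was set as an offset.

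RF changes were ordered by the annotated length of the 5′ UTR, in the MRP genes and in all genes. The 26 members with up to 20 nt had a median log2 change of 0.57, with 8 higher calls (30.8%, against 8.33% of the 480 genes of this class). The 19 members with 21 to 50 nt had a median of 0.51, with 1 higher call (5.26%, against 4.87% of all genes of this class). The 14 with 51 to 100 nt had a median of 0.35, with 1 higher call (7.14%, against 3.22%), and the 13 with more than 100 nt a median of -0.16, with none (against 0.498%). Over all genes the medians of the same length classes were 0.47, 0.40, 0.19 and -0.29. All 11 members with an estimate below 0 had 5′ UTRs of 56 to 276 nt, and none of the 45 members with up to 50 nt was below 0. Few of all genes with short 5′ UTRs were below 0 either: 47 of 480 with up to 20 nt and 183 of 1149 with 21 to 50 nt. Beyond that, 618 of 1894 genes with 51 to 100 nt and 3838 of 5620 with more than 100 nt were below 0. The 10 that rose had 6 to 76 nt, and MRPL24 has 137 nt.

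Across the 72 genes the Spearman correlation of the RF change with 5′ UTR length was -0.58 at 2 h and -0.66 at 1 h, against -0.59 at both times across all genes. Across the 53 cytosolic ribosomal protein genes it was 0.18 at 2 h. These correlations describe genes measured in the same libraries. The 13 members with AAGATGGC at the start codon had a median log2 change of 0.51, from 0.14 for MRPL22 to 0.88 for MRPS27, and the other 59 a median of 0.36. Over all genes the medians were 0.34 with these letters and -0.04 without. The order was reversed in the oxidative phosphorylation genes (0.43 with, 0.58 without) and in the cytosolic ribosomal protein genes (-0.04 with, in 4 genes, and 0.30 without). Genes with these letters also had short 5′ UTRs (median 19 nt among the members), so the motif and the length cannot be told apart here. The RF change followed the GC content of the coding sequence less closely at 2 h (Spearman correlation 0.16), and at 1 h the correlation was -0.305 (across all genes 0.11 and -0.14).

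**Figure D3:**
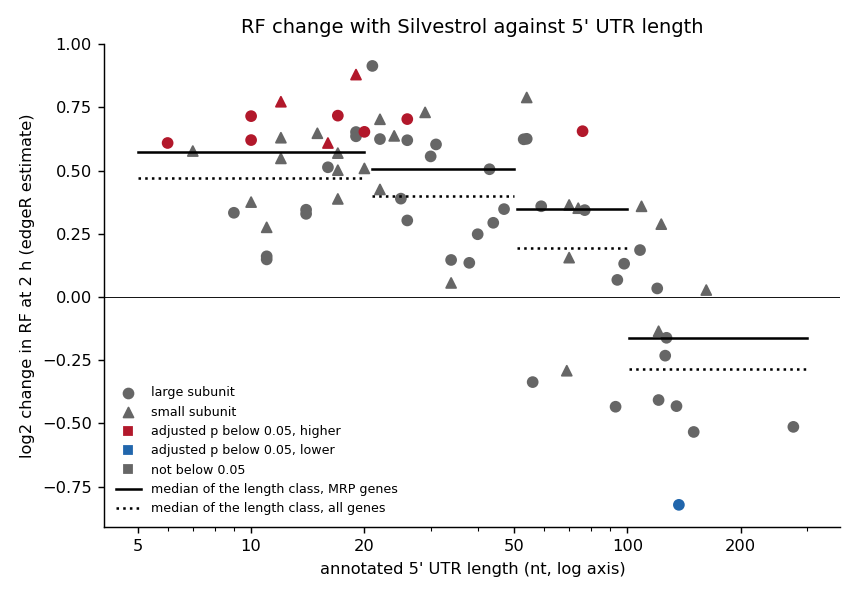
Log2 RF change at 2 h (edgeR estimate) against annotated 5′ UTR length in nt (log axis) for the 72 MRP genes, circles for the large and triangles for the small subunit series, with the medians of 4 length classes for the MRP genes (solid) and for all genes (dotted). The medians step down from 0.57 to -0.16 in the MRP genes, and every point below 0 lies beyond 50 nt.

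At 1 h the MRP genes already stood above the rest. The log2 change in RPKM had a median of 0.10 (quartiles -0.06 and 0.27), against -0.18 over all genes, and 64 of 72 members lay above that median. There is 1 library per condition, so these differences have no replicate check. No member was more than 1 log2 unit higher (0.387% of all genes) and 1 was more than 1 unit lower (7.96% of all genes), which was MRPS21 on 28 and 10 reads. The members with the highest values at 1 h were MRPS14, the counterpart of bacterial S14 (163 RPKM with DMSO, 243 with Silvestrol, log2 change 0.57), MRPS35 (0.56) and MRPL39 (0.53). The lowest beside MRPS21 were MRPL42, at 259 RPKM with DMSO and 163 with Silvestrol (log2 change -0.67), and MRPS33, at 151 and 98.2 RPKM (-0.62). In 52 of 72 members the change lay above the median of all genes at 1 h and in both passages at 2 h (35.1% of all genes), and in 7 it lay below it all 3 times (34.7% of all genes). DMSO itself moved the group little: the median log2 difference between DMSO at 2 h and untreated cells was 0.03, against -0.04 over all genes.

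The mRNA of the MRP genes was on balance slightly lower. The log2 change in mRNA with Silvestrol had a median of -0.17 (quartiles -0.45 and 0.20), against 0.04 over all genes. It was negative for 45 members and positive for 27 (5016 and 5572 of all 10588 genes), in 1 library per condition. It ran from -0.89 for MRPL10, at the base of the stalk that binds translation factors (43.0 RPKM with DMSO, 23.2 with Silvestrol), to 1.14 for MRPL1, part of another stalk (14.7 and 32.2 RPKM). MRPL1 was the 1 member past 1 log2 unit (4.74% of all genes were higher by that much, and 1.80% lower). MRPL28 at -0.76 and MRPS34 at -0.75 followed at the lower end, and MRPL50 at 0.96 and MRPL13 at 0.81 at the upper end.

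These mRNA changes were ordered by the GC content of the coding sequence. The Spearman correlation was -0.85 across the 72 members and -0.61 across all 9143 genes with an annotation. All 25 members with more than 55% GC were lower (median -0.52, range -0.89 to -0.26), and 16 of 18 members with less than 45% GC were higher (median 0.54). In all genes of the same GC classes the medians were -0.32 and 0.53. With 1 mRNA library per treatment, a difference in the base composition of the libraries and one between treatments cannot be told apart. The RF estimates of the same classes were 0.60 and 0.34.

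**Figure D4:**
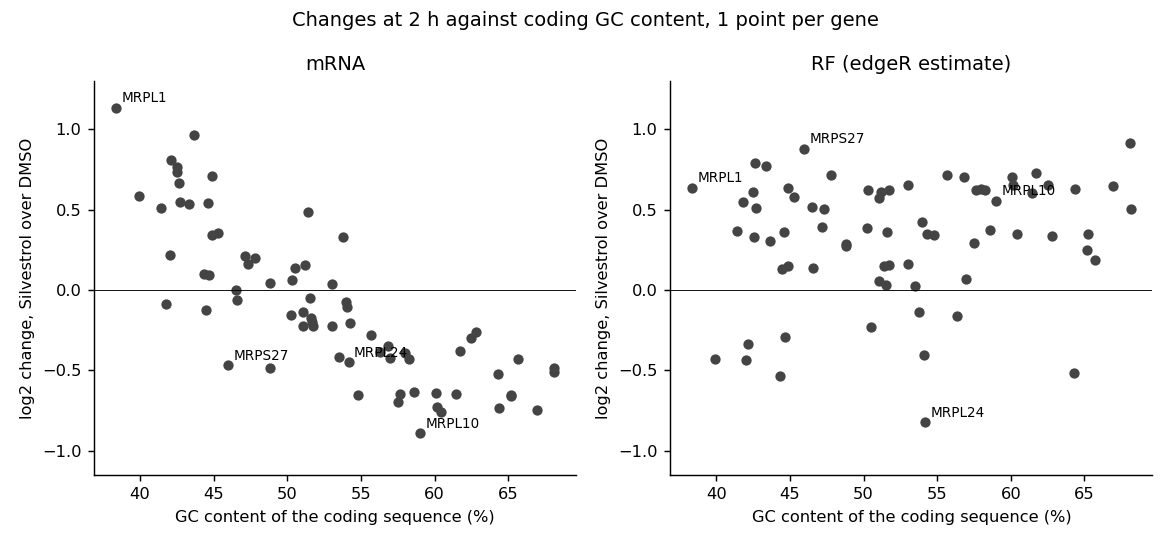
Log2 change with Silvestrol at 2 h in mRNA (left, RPKM, 1 library per treatment) and in RFs (right, edgeR estimate, n = 2 per group) against the GC content of the coding sequence in percent, 1 point per MRP gene. The mRNA values fall from 1.14 for MRPL1 to -0.89 for MRPL10 with rising GC content, and the RF values show no such order.

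Because RFs were higher and mRNA was on balance lower, TE was higher for most members. In passage 3 the log2 change in TE had a median of 0.33 (quartiles -0.12 and 0.83), against -0.28 over all genes. It was above 0 for 49 members in passage 3, for 48 in passage 4 and for 46 in both. Of all genes, 4065 of 10588 in passage 3 and 4165 of 10532 in passage 4 were above 0. In edgeR's test of the difference between the RF and mRNA changes no member passed the threshold in either direction (0 higher and 0.0189% lower over all genes). At an unadjusted p below 0.05 there were 25 higher and 2 lower, against 10.2% and 14.1% of all genes. DESeq2 called 13 higher and none lower, against 3.40% and 4.88%. With the passage as a block 37 members rose in TE and 2 fell, against 21.9% and 21.8% of all genes. Without the passage 3 DMSO library 18 rose (4.69% of all genes), and without the passage 4 DMSO library 6 rose (2.91%). None fell in these fits (7.49% and 5.82% of all genes). Without either one of the Silvestrol libraries no member passed, and neither did any other gene. The mRNA term rests on 1 library per treatment in every one of these fits, and coding GC moved with it: TE medians were 0.91 in members above 55% GC and -0.35 in members below 45%.

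On the scale of z-scores over all genes in passage 3, 5 members lay above 1.5 (4.67% of all genes) and 0 lay below -1.5 (6.46% of all genes), and the median was 0.65 (0.03 over all genes). With the RFs of passage 4, 10 members lay above 1.5 (4.65% of all genes) and 0 below -1.5 (6.62% of all genes). In both passages 4 lay above 1.5, and this overlap was not counted over all genes. With no minimum level 0 lay above 1.5 in passage 3 (4.80% of all genes). The 5 of passage 3 were MRPL34 (1.64), MRPL54 (1.56), MRPL43 (1.52), MRPL23 (1.51) and MRPS34 (1.51). In passage 4 MRPL23 was at 1.43, and MRPL10 was highest at 1.83. In each of them mRNA was lower with Silvestrol, from 182 to 110 RPKM for MRPL54, from 99.7 to 59.9 RPKM for MRPL43, from 162 to 103 RPKM for MRPL23 and from 133 to 79.4 RPKM for MRPS34. RFs were higher in both passages, for MRPL23, which lies at the exit of the peptide tunnel, from 234 and 212 RPKM to 339 and 286 RPKM. MRPS27 came next, with a z-score of 1.46 and an mRNA log2 change of -0.47. The lowest z-scores were those of MRPL42 (-1.05) and MRPL13 (-0.999), the 2 members that fell in TE with the passage as a block.

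The other nuclear genes of mitochondrial translation were listed to set the MRPs in context. Of 7 mitoribosome proteins under other symbols none passed the RF test without the block, and 5 rose and 2 fell with it, where 24.6% and 28.0% of all genes did (median without it 0.42). GADD45GIP1 (a protein of the large subunit) was at 415 and 265 RPKM with DMSO and at 717 and 458 RPKM with Silvestrol (log2 change 0.91 ± 0.34, edgeR adjusted p = 0.14), and DAP3, a GTP-binding protein of the small subunit, was at 170 and 128 RPKM and then at 102 and 82.6 RPKM (-0.42 ± 0.15, edgeR adjusted p = 0.13). Their annotated 5′ UTRs are 11 and 91 nt long. Without the block 2.10% of all genes rose and 7.52% fell. Of 9 mitochondrial translation factors 1 fell in that fit, MTIF2, the initiation factor that brings the initiator tRNA, from 21.2 and 25.3 RPKM to 9.90 and 10.1 RPKM (log2 change -1.03 ± 0.19, edgeR adjusted p = 0.037). Of 24 factors for mitoribosome assembly and mitochondrial rRNA 3 rose, namely GTPBP10, C7orf30 and MTERFD2, and 1 fell, LETM1, an inner membrane protein (median 0.47). With the block 16 of these 24 rose and 2 fell, and of the 9 translation factors 3 rose and 2 fell. In that fit 24.6% of all genes rose and 28.0% fell. GTPBP10, a GTPase that acts on the large subunit, went from 51.8 and 46.5 RPKM to 76.2 and 82.1 RPKM (log2 change 0.80 ± 0.15, edgeR adjusted p = 0.037).

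The genes of oxidative phosphorylation subunits and of cytosolic ribosomal proteins were set beside the MRP genes as the groups nearest in function. Of 70 oxidative phosphorylation genes 10 rose and 2 fell in RFs at 2 h, where 2.10% and 7.52% of all genes did (median log2 change 0.54). With the passage as a block 48 of the 70 rose and 6 fell, where 24.6% and 28.0% of all genes did. Their RF median at 1 h was 0.13 and their mRNA median -0.31. Of 53 cytosolic ribosomal protein genes past the filter, of 81 in the Silvestrol data, 1 rose and 0 fell. In the blocked fit 20 of these 53 rose and 1 fell (24.6% and 28.0% of all genes). The edgeR median of the cytosolic group at 2 h was 0.30 without the block and 0.51 with it, where those of the MRP genes were 0.37 and 0.39. In RPKM the cytosolic medians were -0.77 at 1 h, 0.67 at 2 h in passage 3 and -0.26 at 2 h in passage 4. These passages differed in sign, whereas the MRP medians were 0.10, 0.19 and 0.29. The differences between these groups were not tested.

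**Figure D5:**
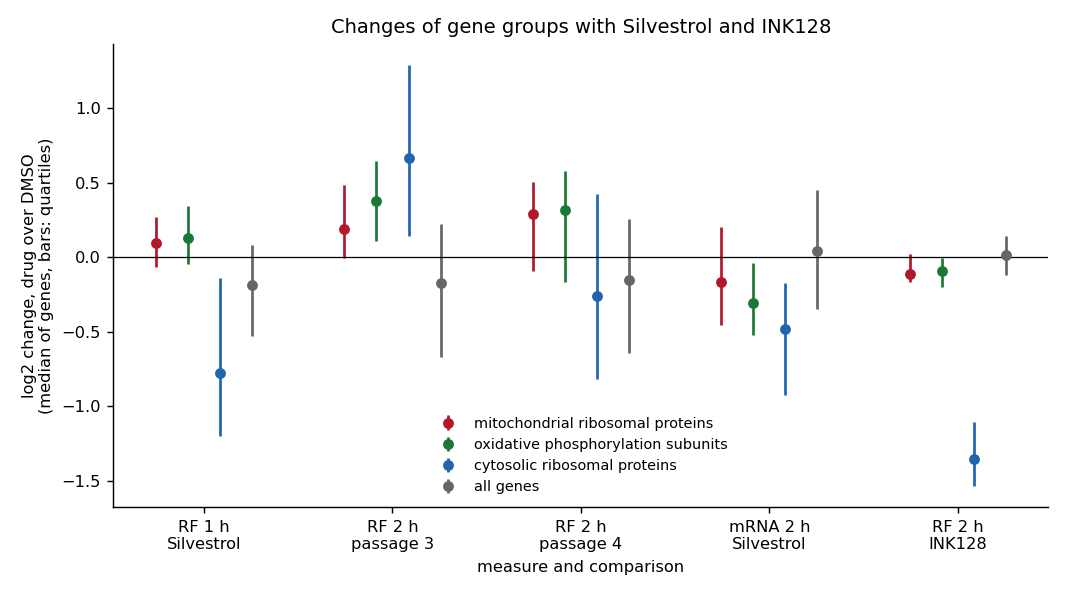
Median log2 change (points) and quartiles over genes (bars) of 4 groups of genes with Silvestrol (RFs at 1 h, RFs at 2 h in each passage, mRNA at 2 h) and with INK128 (RFs at 2 h). The MRP genes lie above all genes in RFs with Silvestrol, and with INK128 they lie at -0.11 while the cytosolic ribosomal protein genes lie at -1.36.

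The INK128 experiment asks the same of mTOR inhibition, with 1 library per condition and no replicate check. RFs on the MRP genes were on balance slightly lower with INK128. The log2 change in RF FPKM had a median of -0.11 (quartiles -0.16 and 0.02), against 0.01 over all genes, and all 71 members lay between -0.5 and 0.5. It was negative for 51 of 71 (3299 of all 7102 genes), and 19 of 71 lay above the median of all genes. No member was past 1 log2 unit in either direction (1.69% of all genes were higher by that much, and 1.96% lower). The spread between members was narrow (SD 0.14, against 0.42 over all genes). The 79 cytosolic ribosomal protein genes had a median of -1.36 and the 80 oxidative phosphorylation genes one of -0.09.

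Most single members followed the group, and 20 of 71 were higher with INK128. The lowest were MRPL36, from 85.0 to 60.7 FPKM (log2 change -0.49), MRPS24, the counterpart of bacterial S3, from 131 to 100 FPKM (-0.38), and MRPL23, from 101 to 78.9 FPKM (-0.36). The highest were MRPL15, the counterpart of bacterial L15, from 34.4 to 39.8 FPKM (0.21), MRPL14, from 295 to 324 FPKM (0.14), and MRPS35, from 30.3 to 33.0 FPKM (0.12). MRPL12, the factor-binding stalk protein listed in this table alone, went from 77.7 to 66.0 FPKM (-0.24), and MRPS17 from 89.7 to 91.3 FPKM (0.03). RF changes with INK128 had a Spearman correlation of 0.06 with 5′ UTR length across 67 members (0.25 across all genes).

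Total RNA FPKM was lower with INK128 for nearly all genes, with a median log2 change of -1.17. The MRP median was -1.23, or 0.06 below that of all genes, and 30 of 71 members lay above the median of all genes. Without centring on that median, 56 of 71 members were lower by more than 1 log2 unit, against 73.8% of all genes (0.0563% were higher by that much, none of them a member). With a pseudocount of 0.5 the count was 20 of 71, against 14.8% of all genes, and the MRP median was -0.84, against -0.68 over all genes. RNA FPKM of the members was low, from 0.429 to 9.92 with DMSO. The log2 change in TE had a median of 1.17, against 1.18 over all genes, and 35 of 71 members lay above the median of all genes. On the z-score scale 1 member lay above 1.5 (1.75% of all genes) and 1 below -1.5 (5.58% of all genes). These were MRPS30 (1.54) and MRPS18C (-1.53), and their RNA values, 0.905 and 0.512 FPKM with DMSO, were near the filter. The counts above 1.5 and below -1.5 became 2 and 0 with a pseudocount of 0.5 (2.51% and 4.39% of all genes) and 0 and 0 with no minimum level (3.72% and 5.61%). Scaled by the median and the median absolute deviation they became 5 and 8, or 7.04% and 11.3% of the members, where 6.86% and 12.3% of all genes lay past these bounds.

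Of the members used for both drugs (67 genes), MRPS27 and MRPL24 had opposite RF changes with Silvestrol, and with INK128 they were at -0.14 and -0.07. MRPL34 was at -0.16 and MRPS35 at 0.12 with INK128. The drugs were given in separate experiments, with separate tables and controls, and their difference was not tested.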

How the data were processed

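The values come from 1 table per drug that the authors deposited. In the Silvestrol experiment the authors clipped linkers, discarded rRNA reads and used Bowtie against hg19 and the canonical KnownGene transcripts of UCSC, with 2 mismatches and 16 alignments as upper limits. The deposited counts per transcript hold reads that map once, placed at the P-site for RFs and at the read's centre for mRNA. The submitters' processing notes name CASAVA 1.8.1 and Bowtie2. The deposited RPKM leaves out positions with non-unique reads or under several transcripts, so the counted length of a gene can differ between libraries. For INK128 the authors deposited FPKM without counts. The program is not given in the sources used here. Deposited columns of the authors' own TE (a ratio), its log2 change and its score were not used, and 0 sample columns were left out.

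Repeated lines were dropped, and of symbols with several entries the one with the highest mean RF RPKM was kept. Genes were kept where the passage 3 RF and mRNA libraries were above 0 and the mean RPKM was 1 or more for RFs and 0.3 or more for mRNA (FPKM likewise for INK128). Counts of the 4 RF libraries at 2 h were tested with edgeR 4.0.16 (quasi-likelihood, TMM, R 4.3.3), and TE as the interaction with the mRNA libraries, with adjusted p below 0.05 as the threshold. DESeq2 1.42.0 was an alternative. p-values of the fits without a block measure the spread between 2 passages. In the blocked fits the passage difference is taken out, and their p-values measure the spread that is left. Passages pair the libraries by the labels, and their deviations from the group means correlated at 0.72 between treatments over 10588 genes. Other comparisons have 1 library per condition and no test. z-scores standardize the log2 TE change over all genes. The tests were checked on simulated counts with log2 changes of 2 in 200 genes and no passage effect. The RF test recovered 194 of the 200, with 9 false calls. Smaller changes, such as those of the members, were not simulated. Members and lists were chosen with earlier results of these data known. Members were named where they passed a test, were most extreme in a measure, were most abundant or failed the filter. MRPS18A, MRPL37, MRPL19, MRPL18 and MRPL22 were named after their values were seen. 5′ UTRs, coding sequences and printed bases are those of GENCODE 44 mapped to GRCh37, 1 transcript per gene (MANE Select for 99.4%), found for 86.4% of tested genes. Promoter windows are RefSeq's of GRCh38.p14.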

Additional observations from a re-analysis of the deposited data

Results flagged for a closer look

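Of the members named, 3 had an RF change at 1 h that lay on the other side of the median of all genes than both passages did at 2 h. This difference between time points was not tested, and the 1 h value rests on 1 library per condition. For MRPL13 the log2 change relative to that median was 0.06 at 1 h, and -0.33 and -0.26 at 2 h in passages 3 and 4. For MRPL18 it was 0.04 at 1 h, and -0.33 and -0.45 at 2 h. For MRPL30 it was 0.11 at 1 h, and -0.47 and -0.82 at 2 h. In RPKM, MRPL30 was at 62.1 with DMSO and 59.1 with Silvestrol at 1 h, and MRPL13 at 426 and 391.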

How the results depend on the processing

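With the passage as replicate block, 47 MRP genes rose and 6 fell in RFs, and 37 rose and 2 fell in TE, where the fits without it gave 10, 1, 0 and 0. The block ended no call. DESeq2 called 25 higher in RFs and 13 higher in TE, where the median became 0.635 in place of 0.572. With DESeq2's size factors in edgeR, 10 rose and 0 fell in RFs (2.22% and 6.56% of all genes). With the counted length as an offset together with the block (chosen after seeing the data), 47 rose and 9 fell (24.1% and 28.0% of all genes), and with the 1 h and 2 h pairs as blocks 47 rose and 3 fell (24.6% and 24.3%). MRPS21 turned to -0.80 with the offset and -0.77 with offset and block. The filter changed few of these: at a minimum of 5 RPKM the TE median was 0.494 and the TE change of MRPL39 was -0.041.

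Each 2 h RF library was left out in turn, with the lone library of a group assumed to vary like the other group. The RF calls then ran from 0 to 5 higher and from 0 to 1 lower, with medians of 0.378 to 0.505, and the TE calls from 0 to 18 higher (0% to 4.69% of all genes), with medians of 0.506 to 0.643. The sign turned in at least 1 of these fits for RFs of MRPL50 (-0.089 to 0.625) and MRPS21 (-0.927 to 1.924), and for TE of MRPS18C (-0.295 to 0.721), MRPS21 (-0.720 to 2.051), MRPL33 (-0.310 to 0.174), MRPL18 (-0.400 to 0.001), MRPL39 (-0.047 to 0.114), MRPL55 (-0.480 to 0.536) and MRPS33 (-0.556 to 0.009). The cause was not tested.

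The count of Silvestrol z-scores above 1.5 was 5, and became 10 with the RFs of passage 4, 3 at a minimum of 5 RPKM (4.31% of all genes) and 0 with no minimum. Their median of 0.652 became 0.612, 0.609 and 0.575 in these settings and 0.618 with untreated RFs as control. Centring on the median of all genes moved the RF median at 1 h from 0.10 to 0.283.

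With INK128 a minimum of 5 FPKM left 1 member, MRPL14, with an RF change of 0.137, an RNA change of -1.516 and a z-score of 1.034, so that 1 gene was past -1 in RNA and 0 past a z-score of 1.5 in either direction. A pseudocount of 0.5 took the count below -1 in RNA from 56 to 20, its median from -1.231 to -0.84, the median z-score from 0.104 to 0.194, and the z-scores past 1.5 to 2 above and 0 below. With no minimum the latter were 0 and 0, with a median of 0.046. Scaling by the median and MAD gave 5 above and 8 below, with a median of -0.042.

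Read counts of 10 to 36 per RF library limit MRPS21. MRPS18B had 0 reads in every Silvestrol library, also in mRNA, and MRPL36 had 279 mRNA reads beside 1 RF read with DMSO at 2 h in passage 3, and the cause was not tested. With 1 mRNA library per condition and 1 library per condition at 1 h and for INK128, those values have no replicate check.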
